A study of Solea senegalensis with 15 samples.

Results

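The genes described here are 3 apolipoprotein B rows (apoba, apobb.1 and LOC122783953) and mogat2 in the testis of Senegalese sole (Solea senegalensis), 4 of the 28921 genes in the count file. LOC122783953 carries only an identifier and was matched to human APOB in the tables of the study. The rows were chosen by their read counts: LOC122783953 and mogat2 were lower after rFsh than after saline. The values of these 2 genes in that comparison are therefore given as a description without a test. All 4 passed the filter of 50 counts in at least 1 fish, as did 21227 genes in all. Testis RNA was sequenced from 5 males given rLh (recombinant single-chain sole luteinizing hormone, 18 µg/kg), 5 given rFsh (recombinant single-chain sole follicle-stimulating hormone, 18 µg/kg) and 5 given saline, each injected into the muscle once a week over 6 weeks. All were 2-year-old males bred from wild-caught parents, of 8 injected per group, and all were kept under the same natural light cycle. The experiment asked what each gonadotropin does to the developing testis.

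Apolipoprotein B is the structural protein of the large lipid-carrying particles of blood and lymph. It is a very large protein that is lipidated as it enters the endoplasmic reticulum, a step that needs the microsomal triglyceride transfer protein, and it stays with its particle until the particle is taken up by lipoprotein receptors. Mammals make it mainly in liver and intestine, and zebrafish, which have several apoB genes, make it also in the layer of cells around the yolk. Mogat2 (monoacylglycerol O-acyltransferase 2) joins a fatty acid to monoacylglycerol to form diacylglycerol, the step by which the mammalian intestine rebuilds absorbed fat before it is loaded onto apolipoprotein B. Vertebrate yolk precursors, the vitellogenins, belong to the same large lipid transfer protein family as apolipoprotein B.

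In the assembly of the reference table (linkage groups as chromosomes), LOC122783953 and apobb.1 lie side by side on linkage group 17. LOC122783953 (gene 122783953) spans 13025122 to 13039986, and apobb.1 (gene 122784163) begins 5249 bp further on and spans 13045236 to 13060764. apoba (gene 122782423) is on linkage group 16, from 13206140 to 13230518, 544 bp after dglucy and 904 bp before ldah, a hydrolase of lipid droplets. mogat2 (gene 122779712) is on linkage group 13, from 12381588 to 12392443, and the next gene, 2886 bp on, is dgat2, whose enzyme converts diacylglycerol into triacylglycerol. The same pair of genes also stands together in the human genome. None of the 4 overlapped another annotated gene. LOC122783953 and apobb.1 may share stretches of sequence, and how reads that fit both were assigned was not examined, so the split of reads between them is uncertain.

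The libraries held 53.2 to 64.5 M assigned reads after rLh (median 60.9), 50.7 to 76.2 M after rFsh (median 61.2) and 67.8 to 109.8 M after saline (median 79.9). Levels are given as CPM, counts scaled to the size of each library with TMM factors, and because they were not divided by transcript length they are compared between fish and not between genes. The tissue label was checked against marker lists. Summed Sertoli cell markers, led by gsdf, were 2952 to 3410 CPM after rLh, 2418 to 3784 after rFsh and 2714 to 3800 after saline, with fshr the 1 of 8 genes listed at 0. Among meiotic genes, led by sycp1, sycp3 was the 1 of 12 listed at 0. Whether reads of fshr and sycp3 were counted under other rows was not examined, so these zeros do not show that the genes were silent.

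Of the 4 genes, LOC122783953 had the lowest rFsh mean relative to saline and the only rFsh values set wholly apart from those of the other groups. After rLh, its levels were 16.3, 19.9, 7.24, 15.60 and 5.85 CPM in fish 63, 64, 66, 67 and 68. After rFsh, they were 3.32, 2.48, 2.16, 2.27 and 4.28 CPM in fish 61, 62, 64, 68 and 69. After saline, they were 16.02, 20.9, 19.8, 30.02 and 16.7 CPM in fish 63, 64, 66, 67 and 68. The 5 rFsh fish were the lowest of the 15 and overlapped neither of the other groups, whereas rLh 66 and rLh 68 fell between the rFsh fish and the saline fish and the other rLh fish lay within or near the saline range. These levels rest on 125 to 2313 counts per fish.

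The LOC122783953 means were 12.97 ± 6.10 CPM after rLh, 2.90 ± 0.894 after rFsh and 20.7 ± 5.61 after saline (SD, n = 5 each), so that the rFsh mean stood at 14.02% of the saline mean. The log2 fold change of rFsh against saline was -2.81 ± 0.33 (SE), and of the 21227 genes 10 had a lower one. Against rFsh, rLh was higher by 2.14 ± 0.34 on the log2 scale, with no overlap between the groups, as in 1.54% of genes. Both contrasts contain the rFsh fish on which the gene was chosen, so they are descriptions. Over the whole table, edgeR called 10 genes at an adjusted p below 0.05 for rFsh against saline, 0.0471% of those tested, and DESeq2 called 622, or 2.93%, with 3642 (17.2%) at an unadjusted p below 0.05 in edgeR, while 1.72% of genes had rFsh and saline groups that did not overlap. Of the 4 genes, LOC122783953 alone had rFsh and saline groups that did not overlap. Testis RNA is a mixture from all its cells, and fewer cells of a type and less RNA per cell cannot be told apart in such samples.

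**Figure D1:**
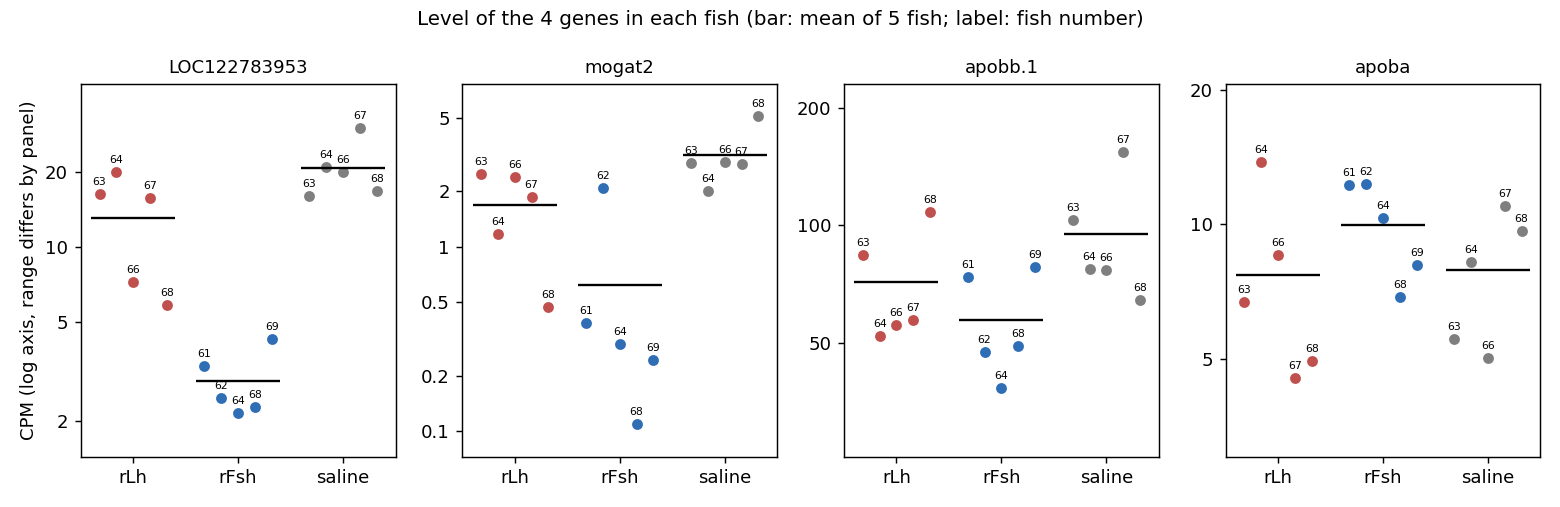
Level of LOC122783953, mogat2, apobb.1 and apoba in CPM (log axis, with a different range in each panel) in each fish after rLh, rFsh and saline, with the fish number above each point and a bar at the mean of 5 fish. For LOC122783953 the rFsh fish lie between 2.16 and 4.28 CPM, below all others, and for mogat2 the same group lies low except for rFsh 62 at 2.08 CPM.

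The rLh contrast of LOC122783953 was tested, but against the same saline fish as the comparison that chose the gene. That choice favours high saline values, and so a negative fold change and a low p here. The log2 fold change was -0.67 ± 0.28 (95% interval -1.27 to -0.07), and 21 of 25 pairs of an rLh and a saline fish had the lower value in the rLh fish. It did not pass the test, with an adjusted p of 0.355 in edgeR and 0.277 in DESeq2. The 95% interval lay below 0, with the limit that the choice of the gene favours this. For this contrast edgeR called 0 genes (0% of those tested, 2802 at an unadjusted p below 0.05) and DESeq2 called 47, or 0.221%, and in 2.1% of genes the groups did not overlap. The rLh fish were uneven, as rLh 66 and rLh 68 had 7.24 and 5.85 CPM against 15.60 to 19.9 in the other 3, and saline 67 was the highest saline fish at 30.02 CPM. The fold change was -0.48 without rLh 68, -0.51 without rLh 66, -0.50 without saline 67 and -0.86 without rLh 64.

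The reads of LOC122783953 and of its neighbour apobb.1 were also set against each other within each library, a measure that scaling between libraries does not touch. LOC122783953 held 16.2, 27.6, 11.52, 21.4 and 5.13% of the reads of the pair in rLh 63, 64, 66, 67 and 68. In rFsh 61, 62, 64, 68 and 69 it held 4.29, 4.97, 5.33, 4.43 and 5.19%. In saline 63, 64, 66, 67 and 68 it held 13.5, 21.2, 20.5, 16.3 and 20.6%. The rFsh fish agreed closely, at 4.84 ± 0.46% (SD, n = 5), while the rLh fish were widely spread, at 16.4 ± 8.67%, and the saline fish stood at 18.4 ± 3.4%.

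In LOC122783953 the exact (Clopper-Pearson) 95% intervals of these shares, which cover counting error only, were narrow beside the spread of the rLh and of the saline fish. The intervals of the rFsh fish all overlapped each other, so these fish could not be told apart beyond counting error. In rLh 68 the interval was 4.59 to 5.72%, in rFsh 64 it was 4.47 to 6.29% and in saline 63, the lowest of the saline fish, it was 12.84 to 14.11%. A single rLh fish, rLh 68, thus lay within the range of the rFsh fish, and the other 4 rLh fish lay above it. The share contains the reads that chose the gene, so it is a description. It depends on the lengths of both transcripts and says nothing of how many molecules of each were present.

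**Figure D2:**
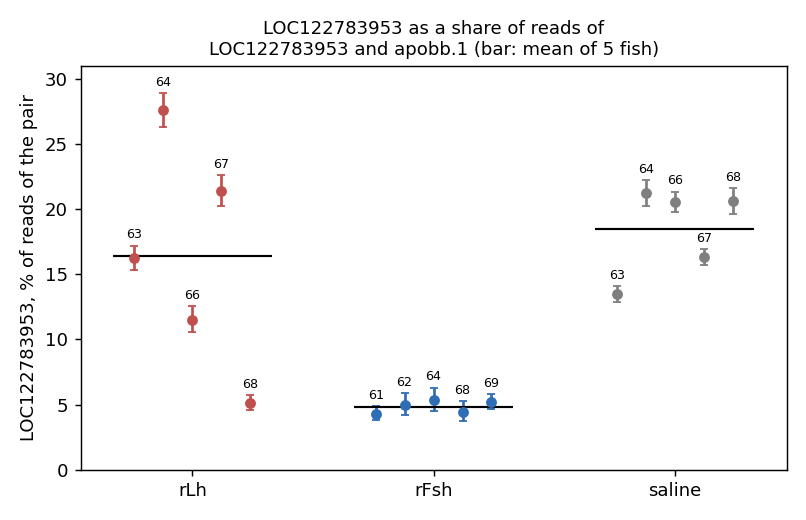
Reads of LOC122783953 as a percentage of the reads of LOC122783953 and apobb.1 together, in each fish after rLh, rFsh and saline, with exact 95% intervals for counting error and a bar at the mean of 5 fish. The rFsh fish lie between 4.29 and 5.33%, the saline fish between 13.47 and 21.24%, and the rLh fish spread from 5.13 to 27.58%.

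apobb.1, the neighbour of LOC122783953, was lower in mean after rFsh but did not pass the test. After rLh it had 83.9, 52.2, 55.6, 57.3 and 108 CPM in fish 63, 64, 66, 67 and 68. After rFsh it had 73.95, 47.4, 38.3, 49.0 and 78.1 CPM in fish 61, 62, 64, 68 and 69. After saline it had 103, 77.4, 76.75, 154 and 64.3 CPM in fish 63, 64, 66, 67 and 68. All 3 groups overlapped, the highest value was that of saline 67 and the 3 lowest were rFsh fish.

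For apobb.1 the means were 71.4 ± 24.1 CPM after rLh, 57.4 ± 17.6 after rFsh and 95.1 ± 35.8 after saline (SD, n = 5 each). The log2 fold change of rFsh against saline was -0.73 ± 0.27 (95% interval -1.29 to -0.16), lower in 21 of 25 pairs of fish, with an adjusted p of 0.201 in edgeR and 0.0966 in DESeq2. Without saline 67 it was -0.49. For rLh against saline it was -0.41 ± 0.27 (-0.98 to 0.15, edgeR adjusted p = 0.496), and without saline 67 it was -0.17. The hormones differed by 0.31 ± 0.27 (rLh against rFsh, -0.26 to 0.88, edgeR adjusted p = 0.700), and by 0.13 without rLh 68 and 0.20 without rFsh 64. Over the alternatives other than leaving out single fish in turn, this difference ran from 0.05 to 0.60. In this last contrast edgeR called 0 of all tested genes (0%, with 2103 at an unadjusted p below 0.05) and DESeq2 called 135, or 0.636%, and in 1.54% of genes the groups did not overlap.

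apoba, on another linkage group, was the only one of the 4 with its highest mean after rFsh. After rLh it had 6.68, 13.8, 8.53, 4.52 and 4.93 CPM in fish 63, 64, 66, 67 and 68. After rFsh it had 12.2, 12.3, 10.3, 6.86 and 8.09 CPM in fish 61, 62, 64, 68 and 69. After saline it had 5.54, 8.22, 5.02, 10.97 and 9.67 CPM in fish 63, 64, 66, 67 and 68. The groups overlapped throughout, and the highest and the lowest fish, rLh 64 and rLh 67, belonged to the same group.

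The means of apoba were 7.69 ± 3.76 CPM after rLh, 9.96 ± 2.44 after rFsh and 7.88 ± 2.57 after saline (SD, n = 5 each). No contrast passed the edgeR test: the log2 fold change was 0.35 ± 0.29 for rFsh against saline (95% interval -0.27 to 0.97, adjusted p = 0.552), -0.02 ± 0.30 for rLh against saline (-0.65 to 0.62, adjusted p = 0.986) and -0.37 ± 0.30 for rLh against rFsh (-1 to 0.26, adjusted p = 0.679). The intervals of apoba leave room for changes of either sign, and the sign for rLh against saline turned when rLh 63, rLh 67, rLh 68, saline 67 or saline 68 was left out, with a range of -0.33 without rLh 64 to 0.13 without rLh 67. Of apoba and apobb.1, the apoB rows that took no part in the choice, 0 of 2 were called in any contrast by either tool, against the shares of all genes given above.

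mogat2 was scarce, at 6 to 409 counts per fish. After rLh it had 2.49, 1.18, 2.38, 1.87 and 0.472 CPM in fish 63, 64, 66, 67 and 68. After rFsh it had 0.385, 2.08, 0.299, 0.109 and 0.244 CPM in fish 61, 62, 64, 68 and 69. After saline it had 2.84, 2.001, 2.90, 2.80 and 5.12 CPM in fish 63, 64, 66, 67 and 68. Of the rFsh fish, 4 were the lowest of all 15, below rLh 68, whereas rFsh 62, at 2.08 CPM, lay within the ranges of both other groups.

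The means of mogat2 were 1.68 ± 0.851 CPM after rLh, 0.624 ± 0.821 after rFsh and 3.13 ± 1.17 after saline (SD, n = 5 each). As a description, the log2 fold change of rFsh against saline was -2.43 ± 0.52, with 24 of 25 pairs of fish lower after rFsh and 17 of all tested genes having a lower fold change, and that of rLh against rFsh was 1.56 ± 0.59. A single fish moved these values: without rFsh 62 they were -3.54 ± 0.50 and 2.67. The 4 low rFsh fish had 29, 18, 6 and 17 reads of mogat2, and rFsh 62 had 110.

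For mogat2 the rLh contrast was tested, again against the saline fish that had helped to choose the gene, which favours a negative fold change. The log2 fold change was -0.88 ± 0.42 (95% interval -1.77 to 0.01), lower after rLh in 23 of 25 pairs of fish, with an adjusted p of 0.386 in edgeR and 0.484 in DESeq2, so it did not pass the test. Saline 68 stood apart at 5.12 CPM, and the other 4 saline fish had 2.001 to 2.90. Without saline 68 the fold change was -0.64, and over the 12 fish that the study analysed, which leave out rLh 68, rFsh 62 and saline 68, it was -0.42 ± 0.22 (adjusted p = 0.293 in edgeR). In mogat2 those 3 fish held the lowest rLh, the highest rFsh and the highest saline value.

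**Figure D3:**
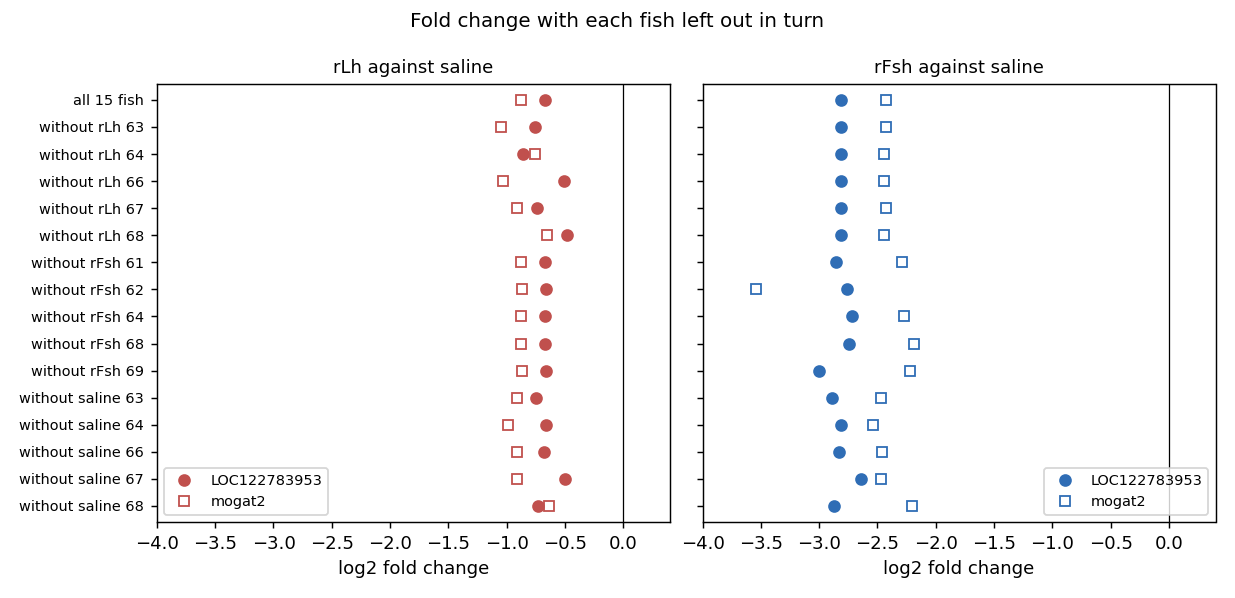
Log2 fold change of LOC122783953 (filled circles) and mogat2 (open squares) for rLh against saline (left) and rFsh against saline (right), over all 15 fish and with each fish left out in turn. For rFsh against saline LOC122783953 stays between -3.0 and -2.64, while mogat2 lies at -3.54 without rFsh 62 and between -2.54 and -2.19 otherwise.

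The 4 genes varied more between fish of one group than most genes did. The SD of log2 CPM within groups was 0.516 for apoba, 0.464 for apobb.1, 0.551 for LOC122783953 and 1.05 for mogat2, against a median of 0.242 over all tested genes, and 98.4% of genes varied less than mogat2. To see whether fish high in one were high in another, group means were subtracted and the 15 fish correlated for each of the 6 pairs of genes, with permutation within groups. Pearson's r ran from -0.289 (apobb.1 and mogat2, permutation p = 0.334, rho -0.282, permutation p = 0.336) to 0.362 (apoba and mogat2, permutation p = 0.185, rho 0.293, permutation p = 0.314), and the adjusted permutation p of r was 0.667 for every pair. Without the 2 fish farthest from the median of the first gene, these r were -0.107 and 0.583. Between LOC122783953 and mogat2, the genes chosen together, it was 0.133 (rho 0.086, permutation p = 0.667 and 0.789), and -0.092 without the 2 fish farthest from the median. With the group means left in, r was 0.757, a value that the choice of both genes for low rFsh levels sets.

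The neighbours of each gene were read from map order, 3 to each side. On linkage group 17, LOC122783955, which ends 1672 bp before LOC122783953, had 73.65, 59.9, 69.6, 74.1 and 69.5 CPM in the rLh fish (numbers 63, 64, 66, 67 and 68), 61.3, 44.8, 40.6, 50.4 and 44.1 CPM in the rFsh fish (61, 62, 64, 68 and 69) and 79.8, 46.75, 103, 67.1 and 65.9 CPM in the saline fish (63, 64, 66, 67 and 68). The rFsh fish were low apart from fish 61, and saline 64 lay among them. Its log2 fold change for rFsh against saline was -0.59 ± 0.16, with adjusted p = 0.14 in edgeR and 0.0329 in DESeq2, so that the call depended on the tool. The gene was looked at for its place on the map, and its level in the rLh fish was within the saline range (-0.07 ± 0.16, edgeR adjusted p = 0.882).

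The remaining neighbours on linkage group 17, apobb.1 aside, had log2 fold changes for rFsh against saline between -0.25 and 0.46. pum2, an RNA-binding regulator of translation, had -0.25 ± 0.09 (edgeR adjusted p = 0.191), hpcal1, a neuronal calcium sensor, had 0.46 ± 0.18 (adjusted p = 0.225), and pdia6, a protein disulfide isomerase, had 0.04 ± 0.11 (adjusted p = 0.890) for rFsh against saline. Around mogat2, dgat2 had 7.68 CPM after rLh, 7.84 after rFsh and 5.67 after saline on average, with a log2 fold change of 0.46 ± 0.22 for rFsh against saline (edgeR adjusted p = 0.301), so its sign was opposite to that of mogat2. map6a on the other side had 0.47 ± 0.22 (edgeR adjusted p = 0.290). The long noncoding RNA gene LOC122779243, the third gene after mogat2, had 0.89 ± 0.21 for rFsh against saline, called by DESeq2 (adjusted p = 0.00753) and not by edgeR (adjusted p = 0.118). Around apoba, ccdc88c, the third gene before it, had -2.12 ± 0.67 for rFsh against saline (edgeR adjusted p = 0.165, DESeq2 adjusted p = 0.0589) and -2.24 ± 0.68 for rLh against saline (edgeR adjusted p = 0.344), and neither tool called it. ccdc88c had 28.4 to 35.9 CPM in the rLh fish and 29.4 to 42.15 CPM in the rFsh fish, against 566.9 CPM in saline 67, 93.6 CPM in saline 68 and 30.15 to 36.9 CPM in the other 3 saline fish, so its saline mean was set by saline 67. Of the genes on either side of apoba, ldah had -0.13 ± 0.12 and dglucy 0.08 ± 0.24 (edgeR adjusted p = 0.609 and 0.895).

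**Figure D4:**
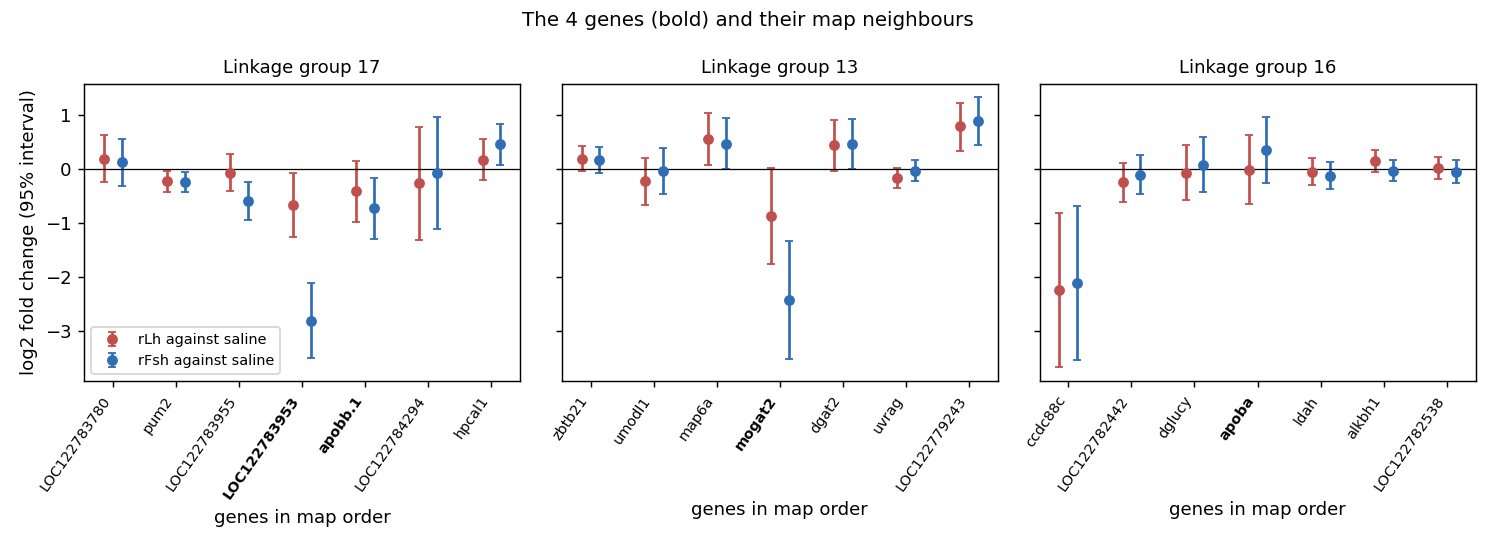
Log2 fold change with its 95% interval for rLh against saline (red) and rFsh against saline (blue) of the 4 genes (bold) and the genes next to them in map order on linkage groups 17, 13 and 16. For rFsh against saline, LOC122783953 at -2.81 and mogat2 at -2.43 stand below each of their plotted neighbours, of which apobb.1 has -0.73 and dgat2 0.46. LOC122783953 and mogat2 were chosen for low levels after rFsh, which favours this place.

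Levels over the 15 fish were next compared with those of every other tested gene, using Pearson's r of log2 CPM as a description. The gene most like apoba was its neighbour dglucy (D-glutamate cyclase), with r = 0.863 over the 15 fish and 0.879 after group means were subtracted. dglucy ends 544 bp before apoba begins. The same fish stood at the ends for both genes, as picking by r favours, with rLh 64 and rFsh 62 highest and rLh 67 lowest of the 15. dglucy had 28.9 CPM in rLh 64, 11.4 CPM in rLh 67 and 30.9 CPM in rFsh 62. Strand was not given for either gene, so reads running from one into the other cannot be told apart from separate transcripts. After dglucy came LOC122772388 (0.860), rwdd2b (0.854), LOC122776276 (0.854) and LOC122779740 (0.854).

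For apobb.1 the most alike genes were LOC122778218 (r = 0.948), fas (0.935), LOC122778749 (0.926), LOC122762757 (0.916) and il1rapl2 (0.916), and the r of the first was 0.954 within groups. LOC122783953, beside it on the map, had r = 0.552 with apobb.1, exceeded by 1719 genes, and 0.157 within groups. fas encodes a death receptor of the cell surface, and its mean was 23.8 CPM after rLh, 22.1 after rFsh and 27.6 after saline.

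For LOC122783953 and mogat2 the most alike genes were found over fish that include the rFsh group, so genes low after rFsh were favoured. tmem145 (r = 0.882), LOC122758644 (0.874, matched to human MMP17 in the tables of the study), ponzr1 (0.874), znf395b (0.860) and stx8 (0.855) were the most like LOC122783953. Their r within groups was lower, at 0.608, 0.484, 0.512, 0.725 and 0.739 in that order. For mogat2 they were LOC122780247 (0.874), rbfox1 (0.846), zgc:85932 (0.842), LOC122775864 (0.841) and LOC122766282 (0.834), with r within groups of 0.667, 0.681, 0.761, 0.668 and 0.758.

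LOC122780247, on the same linkage group as mogat2 but 10671560 bp from it, had the same order of group means. Its levels were 11.6, 8.44, 4.37, 3.76 and 2.46 CPM in the rLh fish (63, 64, 66, 67 and 68), 2.57, 3.50, 0.481, 0.490 and 0.172 CPM in the rFsh fish (61, 62, 64, 68 and 69) and 16.2, 5.002, 16.8, 5.43 and 14 CPM in the saline fish (63, 64, 66, 67 and 68). rFsh 62 was the highest fish of its group and rLh 68 the lowest of its own, as for mogat2. The gene was picked for its likeness to mogat2 over these fish, which favours such matches and the shared order of means. Saline 68, the highest for mogat2, was not the highest here.

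Genes that make, load, cut or take up lipoproteins and acylglycerols were collected in 8 lists, of which 105 members had a row matched by symbol and 89 were tested. With edgeR, 0 of 89 were called for rFsh against saline, for rLh against saline or for rLh against rFsh, and 14, 10 and 9 had an unadjusted p below 0.05, where 17.2%, 13.2% and 9.91% of all tested genes did. DESeq2 called 1, 0 and 1, where it called 2.93%, 0.221% and 0.636% of all tested genes. The edgeR count for rFsh against saline was 4 without rFsh 69 and 2 without saline 68, where 998 and 633 of all tested genes were called. DESeq2 over the 12 fish of the study called 4, 11 and 4 of the listed genes and 1242, 2225 and 675 of all tested genes. The median log2 fold changes of the 89 genes were 0.03, 0.03 and -0.05 in these contrasts, beside 0.01, 0.01 and -0.01 over all tested genes.

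Of the genes for assembly and secretion of apolipoprotein B, 0 of 9 tested were called in either direction by either tool. Over all tested genes, edgeR called 0.0471% for rFsh against saline and 0% in the other contrasts. DESeq2 called 2.93%, 0.221% and 0.636%, so 0 calls in a list this short say little about it. The microsomal triglyceride transfer protein gene had no row matched by symbol, but its partner subunit p4hb (protein disulfide isomerase) had 527 CPM after rLh, 548 after rFsh and 600.0 after saline on average and a log2 fold change for rFsh against saline of -0.13 ± 0.11 (edgeR adjusted p = 0.553). sar1b, the GTPase whose loss in humans blocks chylomicron export, had 0.00 ± 0.08 (edgeR adjusted p = 0.995). mia3, which helps to load bulky cargo at exit sites of the endoplasmic reticulum, had -0.04 ± 0.08 (edgeR adjusted p = 0.857). Of 6 other apolipoprotein rows only apodb passed the filter on low counts, at 0.709 CPM after rLh, 1.16 after rFsh and 0.810 after saline on average, and it was not called (rFsh against saline 0.51 ± 0.32, edgeR adjusted p = 0.427). The remaining 5, apoa2, apoc2, apoc4, apoda.1 and apof, had too few reads to be tested. The listed apoa1, apoa4, apoa5, apoc1, apoc3, apoe, apoh and apom had no row matched by symbol, so their levels were not examined.

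The vitellogenin row vtg3 was called by DESeq2 for rLh against rFsh (log2 fold change 2.73, adjusted p = 0.0292). edgeR did not call it (2.75 ± 0.92, adjusted p = 0.441). Its levels were 0.796, 7.63, 1.03, 0.210 and 0.378 CPM in the rLh fish (63, 64, 66, 67 and 68), 0.252, 0.379, 0.299, 0.254 and 0.330 CPM in the rFsh fish (61, 62, 64, 68 and 69) and 0.251, 0.377, 0.266, 0.415 and 0.251 CPM in the saline fish (63, 64, 66, 67 and 68). The high mean of vtg3 after rLh therefore rested on rLh 64, and the other 4 rLh fish lay between 0.210 and 1.03 CPM. Summed red blood cell markers were also highest in rLh 64, at 88.8 CPM against 28.0 CPM in the lowest rLh fish, and 26.7 to 47.2 CPM after rFsh and 24.5 to 34.55 CPM after saline, and their part in this value was not tested.

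Among genes of acylglycerol synthesis, 0 of 20 were called in any contrast by either tool, against the low shares of all tested genes given above. agpat3 and agpat5, acyltransferases for lysophospholipids, had log2 fold changes for rFsh against saline of 0.03 ± 0.10 and 0.11 ± 0.10, and gpam, which begins glycerolipid synthesis in mitochondria, had 0.07 ± 0.14 (edgeR adjusted p = 0.911, 0.585 and 0.831). Of lipases and their regulators, 0 of 12 were called, against the same shares. mgll, which cleaves the monoacylglycerol that Mogat2 uses, had 0.07 ± 0.09, and lipea and lipeb, copies of hormone-sensitive lipase, had -0.04 ± 0.10 and 0.07 ± 0.12 (edgeR adjusted p = 0.700, 0.853 and 0.811). lpl (lipoprotein lipase), named after its values were seen, had the largest positive fold change among the tested genes of the lists for rFsh against saline, 1.55 ± 0.53 (edgeR adjusted p = 0.18, DESeq2 0.0961). It had 7.73 to 41.3 CPM after rLh, 11.8 to 64.7 after rFsh and 5.38 to 12.6 after saline, and rFsh 68 was the highest fish.

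Lipoprotein receptors and sorting proteins included the only gene of the lists that DESeq2 called for rFsh against saline, lrp2a, a copy of the megalin gene, whose product takes up lipoproteins and many other ligands in mammals. Its levels were 69.4, 80.4, 87.6, 84.55 and 74.3 CPM in the rLh fish (63, 64, 66, 67 and 68), 110.9, 107.4, 98.7, 98.1 and 61.7 CPM in the rFsh fish (61, 62, 64, 68 and 69) and 66.6, 53.7, 65.15, 64.1 and 79.7 CPM in the saline fish (63, 64, 66, 67 and 68). Of the rFsh fish, 4 lay above all saline fish and rFsh 69 among them. The log2 fold change of lrp2a was 0.53 ± 0.14, with an adjusted p of 0.0245 in DESeq2 and 0.119 in edgeR. Its duplicate lrp2b had -0.33 ± 0.18 (edgeR adjusted p = 0.363), and the low density lipoprotein receptor gene ldlra had 0.10 ± 0.21 (edgeR adjusted p = 0.850). The other 13 of 14 were called by neither tool, against the low shares of all tested genes given above.

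Of 11 tested genes of lipid droplets and fatty acid binding and of 21 tested transcription factors, 0 were called in any contrast by either tool. The shares of all tested genes given above were also low. slc27a4 (a fatty acid transporter), bscl2 (seipin, of lipid droplet formation) and fabp3 (a fatty acid binding protein) had log2 fold changes for rFsh against saline of -0.10 ± 0.11, -0.02 ± 0.08 and 0.00 ± 0.19. srebf2 and srebf1, regulators of cholesterol and fatty acid synthesis, had 0.00 ± 0.06 and 0.16 ± 0.09, and creb3l3l, related to a membrane-bound factor that acts on lipoprotein genes in mammalian liver, had -0.32 ± 0.13 (edgeR adjusted p = 0.977, 0.383 and 0.240).

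**Figure D5:**
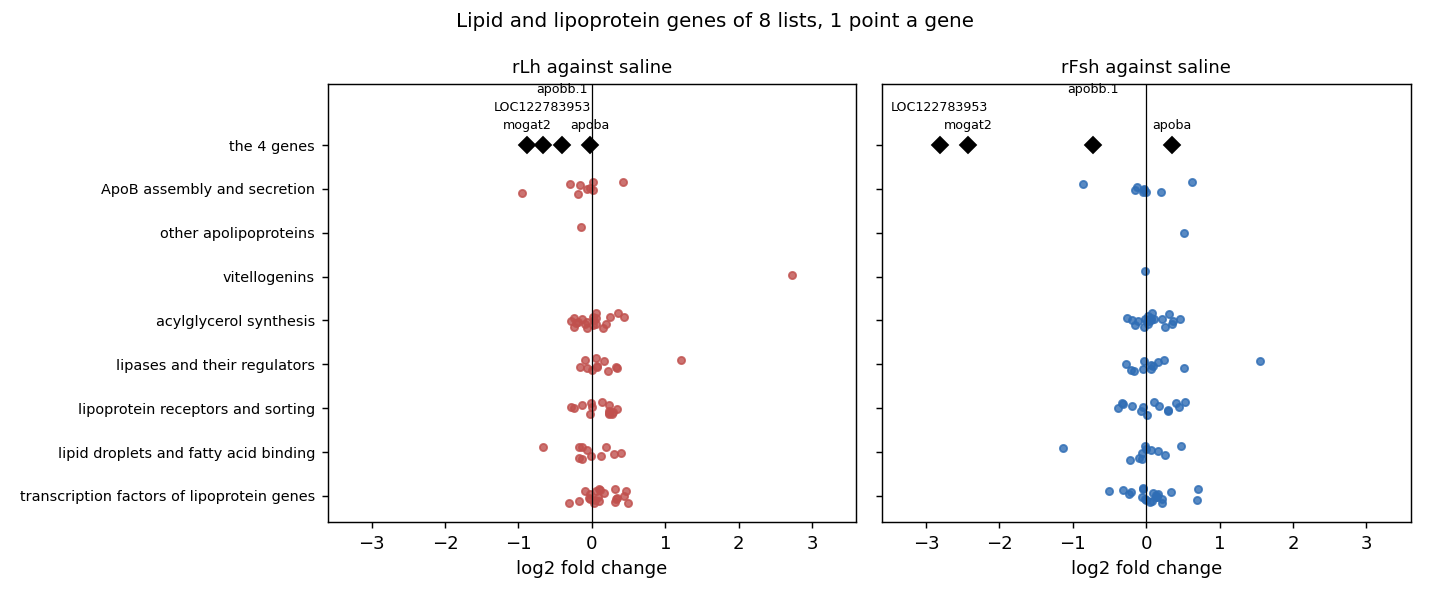
Log2 fold change for rLh against saline (left) and rFsh against saline (right) of the 4 genes (black diamonds) and of each tested gene in 8 lists of lipid and lipoprotein genes (1 point a gene). For rFsh against saline LOC122783953 (-2.81) and mogat2 (-2.43) lie below every listed gene, of which the lowest is at -1.13. LOC122783953 and mogat2 were chosen for low levels after rFsh, which favours this place. For rLh against saline the point at 2.72 is vtg3.

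Markers of tissues that make apolipoprotein B were summed in each library. Liver markers, 15 rows of which rbp4 was listed at 0, summed to 73.0 to 106.3 CPM after rLh, 75.6 to 114.3 after rFsh and 68.5 to 140.6 after saline, and kng1 carried most of the sum (66.6, 71.8 and 95.7 CPM on average in that order). The next highest liver row was itih2, with 11.9 CPM after rLh, 10.16 after rFsh and 10.06 after saline on average. After it came f2 (2.26, 5.46 and 2.43 CPM, and 2.40 to 11.93 in the rFsh fish) and fgb (2.47, 2.56 and 2.87 CPM). fgg averaged 0.79 CPM after rLh, 2.41 after rFsh (0.305 to 4.71) and 0.77 after saline. itih3b.2 averaged 2.13, 0.83 and 0.997 CPM in that order. Below 1 CPM on average in every group lay, among others, 3 genes of abundant liver proteins: fabp10a averaged 0.0910 CPM after rLh, 0.122 after rFsh and 0.0966 after saline, plg 0.385, 0.346 and 0.388 CPM and tfa 0.582, 0.628 and 0.550 CPM. Intestinal markers, 11 rows with none at 0, summed to 26.4 to 32.3 CPM after rLh, 28.97 to 37.2 after rFsh and 27.3 to 34.7 after saline, so the ranges overlapped. mep1a.1 gave the largest part of this sum (14.51, 18.35 and 15.59 CPM on average in that order), and cdhr5a had 7.7, 7.3 and 6.9 CPM. Among the other intestinal rows, fabp2, cdx1a and cdh17 averaged below 1 CPM in every group.

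Spermatocyte markers, led by sycp1, were read as a sum without a test. Summed spermatocyte markers (11 of 12 detected) were 830.6 to 861.1 CPM after rLh, 857.9 to 1102 after rFsh and 708.5 to 815.6 after saline, so that both hormone groups lay above the saline fish, and 4 of the rFsh fish lay above all others. Single rows differed. dmc1 averaged 43.0 CPM after rLh, 48.2 after rFsh and 30.2 after saline, and mlh3 38.8, 46.0 and 39.4 in that order. Sums for Leydig cells, spermatogonia, spermatids and sperm, macrophages and smooth muscle overlapped between all groups. Summed endothelial markers were 260.3 to 325.0 CPM after rLh, 214.1 to 277.0 after rFsh and 212.0 to 358.9 after saline. kdr led this sum, with 104.8 CPM after rLh, 59.9 after rFsh and 109.6 after saline on average (43.7 to 178.3 in the saline fish). In that order kdrl averaged 26.5, 26.1 and 22.3 CPM, cdh5 16.2, 16.8 and 16.5, and egfl7 16.8, 16.1 and 15.9. The sum therefore does not stand for all its rows. The part of these markers' cells in the low levels of LOC122783953 and mogat2 after rFsh was not tested.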

How the data were processed

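Per the labels and the study's methods, libraries were made from testis RNA by a modified SMARTseq2 protocol and read in pairs. The authors made the deposited counts (whole numbers per gene, not normalized) with cutadapt 3.4, FastQC 0.11.9 and Subread 2.0.1, and assigned reads to genes in R 4.0.4 with default parameters. Without molecular identifiers or strand, amplified copies and overlapping transcripts cannot be separated.

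Genes with 50 counts in at least 1 fish were tested with edgeR 4.0.16 under R 4.3.3 (a quasi-likelihood test on TMM-scaled counts, 3 groups in 1 fit, no covariate, Benjamini-Hochberg adjustment over all tested genes, threshold 0.05), and with DESeq2 1.42.0 as an alternative. In counts simulated for rFsh against saline over 21227 genes, with 200 changed by 1 on the log2 scale, edgeR recovered 69.5% of the changed genes with 4 false calls and DESeq2 76.5% with 32 false calls, so genes called by DESeq2 alone may hold more false ones than the threshold states. The scripts were tested on simulated data in this way. The simulated spread was taken from edgeR's own estimates, which may favour edgeR. In the real counts edgeR called 10 genes and DESeq2 622 for rFsh against saline, a gap that the simulation did not show. Its recovery and false calls may therefore not hold for these data. Log2 CPM used a prior count of 2, and correlations between the genes 100000 permutations. Of 28921 rows, 26916 (93.1%) were matched to the reference table by symbol. It gives no exon lengths or descriptions here, so levels per length were not computed, listed genes were ranked by mean CPM, and rows with only an identifier joined no list. Named genes are the 4 genes, listed genes past an adjusted p of 0.05 in either tool or otherwise the 3 highest of each list, and the 5 genes most alike each. The 4 genes and all lists were chosen with earlier results of these data known. The labels do not say which 4 fish per group the study analysed. They were found by matching mean counts over 1087 genes of its tables. Which libraries shared a sequencing run is not given in the sources used here. Figures were drawn with matplotlib 3.10.9.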

Additional observations from a re-analysis of the deposited data

Results flagged for a closer look

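Of 12 sets of 5 fish (4 genes in 3 groups), 2 held a fish far from the rest by Dixon's ratio of gap to range (95% critical value 0.71). Chance alone gives about 1 in 20 if values are normally distributed, which was not checked. The ratio was taken on CPM and not on the log scale, where high values stand out less. The flags may therefore depend on the scale. Both concerned mogat2. rFsh 62 had 2.08 CPM and the next rFsh fish 0.385 CPM (ratio 0.860). Saline 68 had 5.12 CPM and the next saline fish 2.90 CPM (ratio 0.712). For LOC122783953, the same fish were not apart from their groups, at 2.48 CPM in rFsh 62 and 16.7 CPM in saline 68.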

How the results depend on the processing

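Of 324 values of the 12 fold changes under alternative settings, 310 kept their direction and side of the threshold, or, where untested, moved by less than 1 SD between fish. This count says little about stability. The tested fold changes began at an edgeR adjusted p of 0.201 to 0.986, far from the threshold. The SD allowed to mogat2 was wide, and some settings left out a fish of a group not compared. LOC122783953 for rFsh against saline ranged from -3.13 to -2.76 over 12 alternatives and from -3.0 to -2.64 with single fish left out. What the fish numbers mean is not given, and whether they pair the samples is not settled. In 1 of 9 same-numbered pairs the deviations correlated above 0.1 (range -0.246 to 0.484, the highest for rLh 63 with saline 63). Of the rLh fish, 1 of 5 correlated best with its own number. The spread of such correlations without pairing was not computed. With the fish number as a replicate block, apoba had -0.13 for rFsh against saline and 0.07 for rLh against rFsh, mogat2 had -3.71 and 2.84, and 28, 2 and 12 genes were called for rFsh and then rLh against saline and for rLh against rFsh. The numbers of rFsh 61, rFsh 62 and rFsh 69 occur in no other group, so the block terms absorb these fish. Both rFsh contrasts then rest on rFsh 64 and rFsh 68, and their shifts cannot be read as an effect of pairing. Over the 12 fish of the study, apoba had 0.20 for rLh against saline (0.17 with DESeq2), mogat2 had 2.89 for rLh against rFsh (2.91 with DESeq2), edgeR called 3 genes for rLh against rFsh, and DESeq2 called 1242, 2225 and 675 in the order above. Over 15 fish DESeq2 called 622, 47 and 135. For rFsh against saline edgeR called 10 genes, but 6 with upper quartile factors, 4 with filterByExpr, 3 with only the 2 groups, 1 with the older form of the test and 1 at equal depth. With single fish left out the calls ranged from 1 (saline 66 or 67) to 998 (rFsh 69; 633 without saline 68) for rFsh against saline, from 0 to 2 for rLh against saline and from 0 to 20 for rLh against rFsh, apoba from -0.33 to 0.13 for rLh against saline, and mogat2 from -3.54 to -2.19 for rFsh against saline. Of the 89 listed genes, 0 were called, but with DESeq2 1, 0 and 1, with DESeq2 over 12 fish 4, 11 and 4, and with single fish left out 0 to 4 for rFsh against saline. apobb.1 for rLh against rFsh ranged from 0.13 to 0.46 with single fish left out. The causes were not tested. The lowest adjusted p of apobb.1 under any alternative was 0.0503 (rLh) and 0.0536 (rFsh), both with DESeq2 over 12 fish. The older form, equal depth and DESeq2 over 12 fish were chosen after seeing the data. Depth limits mogat2 most, at 6 reads in rFsh 68.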
